A study of Mus musculus with 18 samples.

Results

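RAD21 sites were examined at the genes of B cell receptor and coreceptor signalling in mouse splenic B cells. The 38 names chosen for the pathway stand for 37 genes, because Cd45 is another name of Ptprc, out of 22367 protein-coding genes in the mm9 annotation. A gene was said to hold a site when the centre of a RAD21 peak lay in its body or within 20 kb of either end. Peaks of the 12 deposited lists that shared at least 1 bp were merged, which gave 18957 sites, and 96 of them lay at 35 of the 37 genes. Ms4a1, which encodes the surface protein CD20, and Btk, a kinase that acts on phospholipase C gamma 2, had no site in any list.

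The B cell receptor is a membrane immunoglobulin joined to the signalling chains CD79A and CD79B. When antigen binds, Src family kinases phosphorylate these chains and recruit SYK, which builds a complex of adaptors, exchange factors, phospholipase C gamma 2 and phosphoinositide 3-kinase. Calcium, protein kinase C and a complex that holds BCL10 and MALT1 then carry the signal to NFAT and NF-kappaB. Coreceptor proteins such as CD21 and CD81 lower the threshold, and inhibitory receptors such as CD22, CD72 and FcgammaRIIB raise it through the phosphatases SHP-1 and SHIP-1. RAD21 is a subunit of cohesin, the ring complex that holds sister chromatids together and forms chromatin loops, and many of its sites in mammalian genomes are shared with the DNA-binding protein CTCF.

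The cells were splenic B cells of C57BL/6 mice of 8 to 10 weeks, with 12 mice pooled for each replicate and 3 replicates at each time point. Resting cells were unstimulated, and the stimulated cells had received 50 µg/ml LPS and 2 ng/ml IL-4 for 48 h or 96 h, a treatment that drives switching to IgG1. The 96 h cells were also enriched for IgG1-positive cells by negative selection, so that time in culture and this purification cannot be told apart. The labels give a replicate number but not how the replicates were separated, and p-values therefore measure the spread between these replicates only. No expression values were analysed here, so the B cell identity of the cells rests on the labels.

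The sequences of 9 sites are shown as examples of those with a peak in many replicates or that separated a pair of time points fully. Each is 80 bases of mm9, written 5′ to 3′ on the strand given, and the capitals mark the match to a 20-base motif learned from RAD21 sites elsewhere in the genome, whose consensus NNNNNNGCGCCCCCTNGTGG resembles the known CTCF motif. A consensus letter is given where a base made up most of the aligned sites and N elsewhere.
Ptprc site 1, chr1:139941290-139941369, plus strand: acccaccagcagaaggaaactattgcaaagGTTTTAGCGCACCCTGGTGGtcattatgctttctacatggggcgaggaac
Cd22 site 1, chr7:31644433-31644512, plus strand: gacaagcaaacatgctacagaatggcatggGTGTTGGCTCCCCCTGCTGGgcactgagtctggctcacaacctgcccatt
Grb2 site 5, chr11:115584034-115584113, minus strand: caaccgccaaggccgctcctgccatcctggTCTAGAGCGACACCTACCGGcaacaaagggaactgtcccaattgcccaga
Cblb site 1, chr16:52182351-52182430, plus strand: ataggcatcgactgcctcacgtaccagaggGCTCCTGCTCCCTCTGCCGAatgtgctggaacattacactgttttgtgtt
Vav2 site 4, chr2:27283774-27283853, plus strand: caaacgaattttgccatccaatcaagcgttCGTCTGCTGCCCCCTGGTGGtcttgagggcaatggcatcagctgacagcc
Pik3cd site 3, chr4:149084861-149084940, plus strand: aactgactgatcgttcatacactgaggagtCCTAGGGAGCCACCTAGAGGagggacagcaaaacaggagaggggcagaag
Plcg2 site 1, chr8:120072049-120072128, plus strand: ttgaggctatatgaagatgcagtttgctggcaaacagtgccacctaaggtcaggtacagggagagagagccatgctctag
Akt1 site 1, chr12:113891523-113891602, minus strand: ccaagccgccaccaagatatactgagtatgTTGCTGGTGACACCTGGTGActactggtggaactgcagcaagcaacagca
Nfatc2 site 1, chr2:168294688-168294767, minus strand: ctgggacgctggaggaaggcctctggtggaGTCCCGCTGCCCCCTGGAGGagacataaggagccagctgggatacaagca

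The sequence at Plcg2 is printed without capitals because its best alignment, 7.97 log2 odds, fell below the match level of 9.2. The match at Vav2 site 4 scored 22.01 log2 odds and that at Cblb site 1 scored 10.86, so the most widely shared sites did not all carry a close copy of the motif.

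The replicate lists held between 821 and 8579 peaks, and the pooled lists, called by the authors on the merged reads of a time point, held 5690 peaks for resting, 5579 for 48 h and 12806 for 96 h B cells. Replicate 2 of the 48 h time point stood apart, at the member genes and elsewhere. Only 1.52 of every 1000 of its peaks lay at a member, against 11.1 and 12.8 in the other 48 h replicates and between 7.34 and 13.4 in the remaining replicates. The 4 member sites with a peak in this replicate and in no list other than the 48 h pooled one (Inpp5d site 3, Lyn site 1, Bank1 site 1 and Vav2 site 1) had no motif match, and 2 of them overlapped a tandem repeat of 20 bases or more. The 4549 sites of this kind outside the members were alike. Of these, 1.19% had a motif match and 63.6% a tandem repeat, where 6.43% of windows 1 kb away had a repeat. Of all 18957 sites 14404 remained without such sites, which also set the shares of all sites given for comparison. Scores were used only as a percentile within their own list, the percent of its peaks at or below that score, and a list without a peak at a place says nothing of binding below the caller's threshold. Read numbers at the peaks were not analysed here.

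In the pooled lists a site was present at 32 of the 37 members in resting cells, 86.5% (exact binomial 95% interval 71.2 to 95.5), where 26.5% of all protein-coding genes had one. At 48 h 25 members had a site, 67.6% (50.2 to 82), where the share of all genes was 20.8%. At 96 h 34 members had a site, 91.9% (78.1 to 98.3), where the share of all genes was 47.6%. Genes within 25% of a member's length had a site in 31.1%, 27.4% and 56.9% of cases at the same time points, so the members were above genes of their own length in each list. These intervals hold counting error only, and genes are not replicates of a time point. The 48 h pooled reads include replicate 2, and its effect on the 48 h counts was not tested. Whether the genes of similar length are expressed in B cells was not analysed here. When only the top 5579 peaks by score were kept from each pooled list, 32, 25 and 26 members had a site at rest, 48 h and 96 h, and the shares of genes of similar length were 30.8%, 27.4% and 32.4%. The gap between members and genes of similar length was widest in resting cells here and in the full pooled lists. In the full lists it was 55.3 percentage points at rest, 40.2 at 48 h and 35 at 96 h. When a pooled peak also had to be overlapped by a peak of at least 2 replicates, 23, 7 and 23 members had one, against 9.92%, 3.87% and 22.8% of all genes and 11.5%, 5.09% and 27.8% of genes of similar length. At 48 h replicate 2 had a peak at only 8 members, so there the rule rested largely on replicates 1 and 3.

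**Figure D1:**
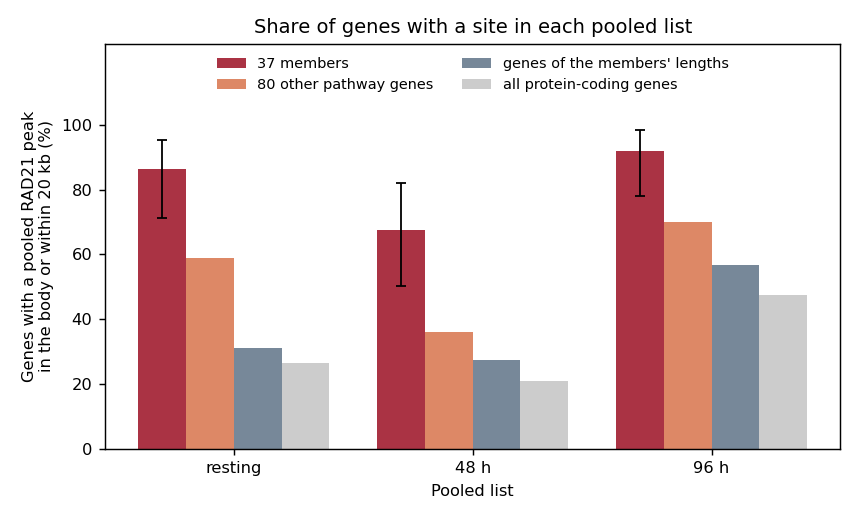
The height of each bar is the percent of genes with a RAD21 peak in the body or within 20 kb in the pooled list of a time point, for the 37 members, 80 other pathway genes, genes of the members' lengths and all protein-coding genes. Error lines on the members are exact binomial 95% intervals, and the member bars, at 86.5%, 67.6% and 91.9%, are the tallest at each time point.

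The difference from genes of similar length was seen in short and long members. The 14 members under 50 kb had on average 1.93 sites where genes of similar length had 0.914, and 11 of them had a site in the pooled resting list (78.6% against 28.5%). The 16 members of 50 to 150 kb had 3.06 sites against 1.29, and the 7 members of 150 kb or longer had 2.86 against 1.97. Over all 37 members the mean was 2.59 sites a gene, against 1.28, and 2.49 against 1.08 without the sites of 48 h replicate 2 alone. Prkcb had the most sites, 7, and 3 members (Lyn, Grb2 and Pik3r1) had 5.

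Among single replicates, resting replicates 1 to 3 had a peak at 24, 9 and 28 members. The 48 h replicates had one at 15, 8 and 16 members, and the 96 h replicates at 18, 25 and 31. Replicate 2 of the resting cells, which also had the shortest list, lay below all 96 h replicates, and the ranges of the resting and 96 h replicates overlapped. The means were 20.3 ± 10 (SD, n = 3) members in resting, 13 ± 4.36 in 48 h and 24.7 ± 6.51 in 96 h cells. By an exact two-sided permutation test the time points did not differ beyond this spread (F = 1.94, p = 0.218, adjusted 0.436 over 12 tests by Benjamini-Hochberg), and without replicate 2 of the 48 h cells the same exact permutation test gave F = 0.889 and p = 0.429. The difference between 96 h and 48 h was 11.7 members with no overlap of the replicates, and its exact permutation p = 0.1 is the smallest that 3 replicates against 3 can give (adjusted 0.436). Without replicate 2 of the 48 h cells it was 9.17 members (exact permutation p = 0.2). Replicate by replicate, 13.8%, 5.73% and 21.8% of genes of similar length had a resting peak, where the members had 64.9%, 24.3% and 75.7%. The 48 h shares of genes of similar length were 10.4%, 19.6% and 10.2% where the members had 40.5%, 21.6% and 43.2%. The margin was thus 2.05 percentage points in replicate 2 of the 48 h cells and between 18.6 and 53.9 in the other 8 replicates. At 96 h the members had 48.6%, 67.6% and 83.8% against 18.4%, 27.3% and 45.2%. The margin over genes of similar length averaged 41.2 ± 19.6 percentage points in resting, 21.8 ± 17.1 in 48 h and 36.4 ± 5.37 in 96 h cells (n = 3 each), and its exact permutation test over time points gave F = 1.3 and p = 0.339, or F = 0.337 and p = 0.682 without replicate 2 of the 48 h cells.

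Set against the length of the lists, the order of the time points changed. Of every 1000 peaks, 13.4, 13.4 and 12 lay at a member in the resting replicates, and 8.91, 7.91 and 7.34 in the 96 h replicates. No 96 h value reached a resting value, the difference was -4.87 per 1000, and the exact permutation p = 0.1 is again the smallest possible (adjusted 0.436). Over the 3 time points F was 1.73 (exact permutation p = 0.218, adjusted 0.436). Without replicate 2 of the 48 h cells it was 24.2 (exact permutation p = 0.0107, with no adjustment). This was the highest F with 1 replicate left out. The lowest was 0.979, without resting replicate 2 (exact permutation p = 0.418). Limited to the 821 highest-scoring peaks of each replicate, 12, 9 and 13 members had a peak in resting cells, 6, 1 and 7 at 48 h and 4, 8 and 6 at 96 h. Every resting replicate then lay above every stimulated one, and the exact permutation test over time points gave F = 6 and p = 0.0321, with no adjustment for the alternatives tried. Without replicate 2 of the 48 h cells this exact permutation test gave F = 7.24 and p = 0.0643. Genes of similar length had a peak in 3.5% to 6.13% of cases in these shortened lists. The direction between 96 h and resting cells thus depended on whether whole lists or their highest-scoring peaks were counted: 4.33 more members at 96 h in whole lists (exact permutation p = 0.6) and fewer in shortened ones, a difference of -5.33 with exact permutation p = 0.1.

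**Figure D2:**
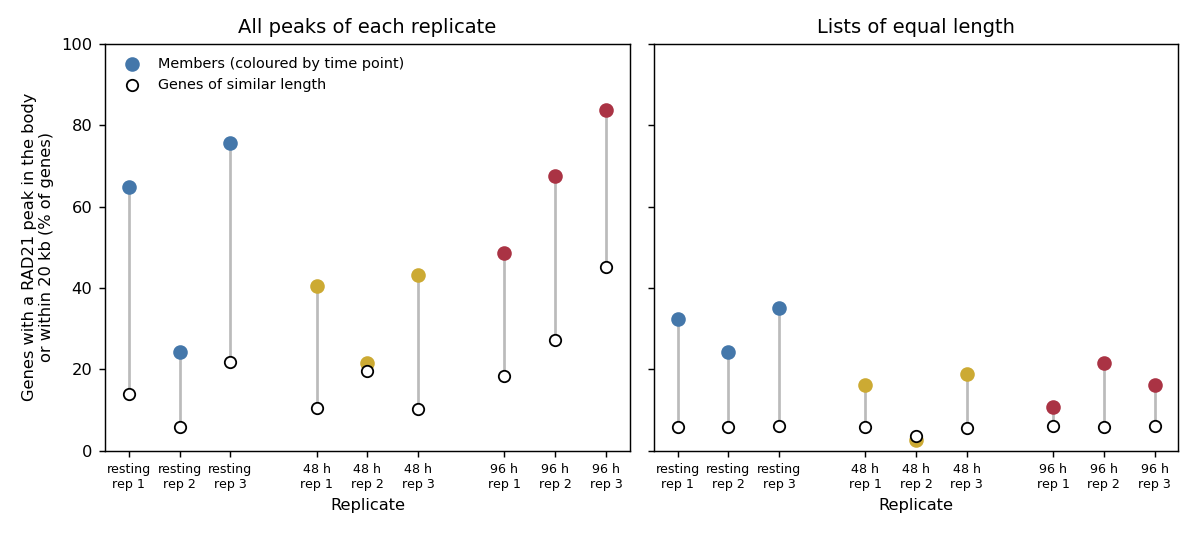
Each filled point is the percent of the 37 members with a RAD21 peak in the body or within 20 kb in a replicate, and each open point the percent of genes of similar length; the left panel uses all peaks and the right panel the 821 highest-scoring peaks of each replicate. In the right panel the resting replicates, at 24.3% to 35.1%, lie above all stimulated replicates, and 48 h replicate 2 lies below genes of similar length.

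A peak in each of the 3 replicates was found at 6 members in resting cells (16.2%, where 3.32% of all genes and 4.15% of genes of similar length had one), namely Cd79b, Dapp1, Cblb, Vav2, Pik3cd and Nfatc1. At 48 h this held for Vav2 and Prkcb (5.41%, where 0.925% of all genes had one), each through different sites in different replicates. Without replicate 2, 9 members had a peak in both remaining 48 h replicates (24.3%, against 3.61% of all genes and 4.8% of genes of similar length): Cd79b, Ptprc, Cd22, Grb2, Cblb, Vav2, Pik3cd, Prkcb and Malt1. At 96 h it held for 17 members (45.9%, against 11.3% of all genes and 14.2% of genes of similar length). Single sites were less often shared by all replicates: 8 member sites had a peak in all 3 resting (8.33%, against 2.83% of all sites), 0 in all 3 of the 48 h (against 0.528%) and 19 in all 3 of the 96 h replicates (19.8%, against 9.89%). Of the 96 sites 37 were found in 3 or more of the 9 replicates (38.5%, against 19.8% of all sites) and 15 in at least 6 (15.6%, against 4.94%). Without the sites of 48 h replicate 2 alone the shares were 40.2% against 26.1% and 16.3% against 6.51%. No member site had a peak in all 9 replicates, and 4 had one in 8, at Cd79b, Cblb, Pik3cd and Nfatc1.

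**Figure D3:**
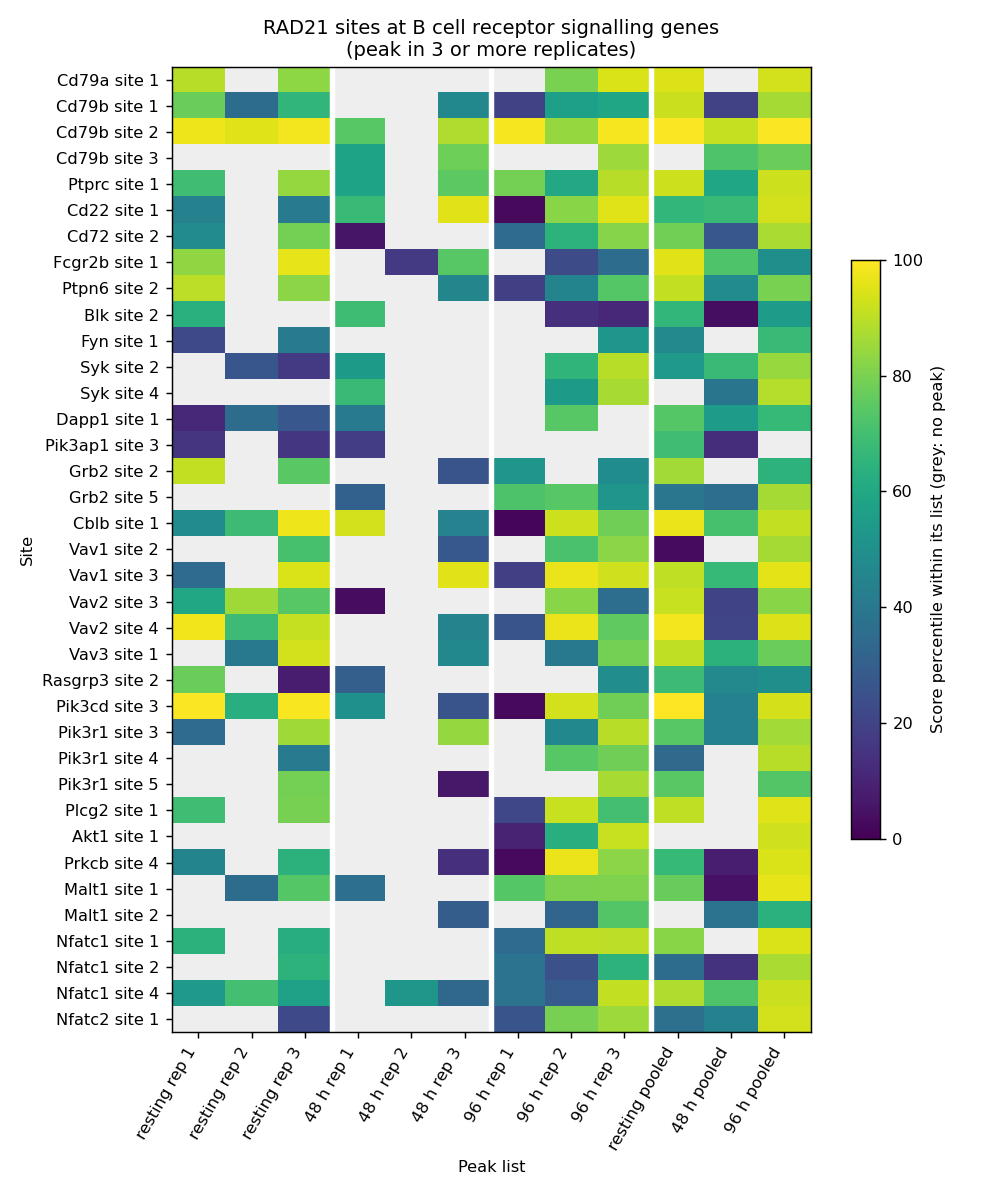
Rows are the 37 member sites with a peak in 3 or more replicates and columns the 9 replicate and 3 pooled lists; colour is the score percentile of the peak within its list and grey means no peak. The column of 48 h replicate 2 is grey except at Fcgr2b site 1 and Nfatc1 site 4, and Cd79b site 2, Cblb site 1, Pik3cd site 3 and Nfatc1 site 4 each have a peak in 8 replicates.

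The signalling chains of the receptor held 5 sites. Cd79b, 3.4 kb long, was flanked on both sides. Its site 2, 11210 bp before the gene start and inside the body of the sodium channel gene Scn4a, scored at percentiles 97.4, 95.2 and 98.4 in the resting replicates. At 48 h it scored at 73.9 and 88.1 in replicates 1 and 3, and at 96 h at 98.7, 84.2 and 98.8. Cd79b site 1, downstream of the gene and 1006 bp from the start of the growth hormone gene Gh, scored at 77.5, 35.4 and 65.7 in resting, 46.6 in 48 h replicate 3 and 19.8, 56.3 and 59.1 in 96 h cells. Cd79b site 3, 15098 bp before the start, had no peak in any resting replicate, peaks at percentiles 57.9 and 78.1 in 48 h replicates 1 and 3 and 1 peak at 85.5 in 96 h replicate 3. Cd79a, which encodes the partner chain, had site 1 at 6714 bp before its start in 2 resting and 2 of the 96 h replicates and in no 48 h list, and its site 2 was held by the 48 h pooled list alone.

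Of the coreceptor and surface proteins, Ptprc, which encodes the phosphatase CD45 that keeps Src family kinases ready to act, had 4 sites. Its site 1 (chr1:139941176-139941452) lay 18124 bp beyond the end of the gene and had a peak in 7 replicates. It scored at 69.4 and 84.3 in resting replicates 1 and 3, at 57.9 and 74.7 in 48 h replicates 1 and 3 and at 79, 60.4 and 89.1 in the 96 h replicates. The other Ptprc sites had a peak in 2 replicates at most, including one 5 bp from the start that only resting lists held. Cd81, which encodes a tetraspanin of the coreceptor, and Cr2, which encodes the complement receptor CD21, had 2 sites each, with a peak in at most 2 replicates, and neither had a site in the 48 h pooled list.

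The inhibitory receptors and phosphatases held 11 sites, of which 4 had a peak in at least 3 replicates, and each of these 4 lay outside the gene it was assigned to. Cd22 site 1, 5955 bp beyond the gene and 2023 bp from the start of Ffar1, had a peak in 7 replicates. It scored at 44 and 40.9 in resting replicates 1 and 3, at 67.6 and 95.7 in 48 h replicates 1 and 3, and at 2.5, 82.3 and 95.3 in the 96 h replicates, so its rank varied as much within 96 h cells as between time points. Cd72 site 2, in the neighbouring Tesk1 gene, had a peak in 2 resting replicates at 48.2 and 79.1, in 48 h replicate 1 at 5.6 and in the 96 h replicates at 34.8, 64.7 and 82. Ptpn6, which encodes SHP-1, had site 2 at 90.2 and 82.7 in resting replicates 1 and 3, at 46 in 48 h replicate 3 and at 19.1, 45.1 and 73.5 at 96 h. Fcgr2b had a single site, 16187 bp before its start, with 2 replicates at each time point. It scored at 83.3 and 96.2 in resting replicates 1 and 3, at 16.9 and 74.2 in 48 h replicates 2 and 3 and at 22.8 and 35.3 in 96 h replicates 2 and 3, so that the resting ranks lay above all others. Inpp5d, which encodes SHIP-1, had 3 sites with 1 replicate each.

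The kinases had 13 sites, but none with a peak in all replicates of a time point. Syk, which starts the cascade on the phosphorylated chains, had 4 sites. Syk site 2 in intron 7 had peaks in 2 resting, 1 of the 48 h and 2 of the 96 h replicates, and site 4, 75474 bp from the start and beyond the gene, had no resting peak but 1 at 48 h and 2 at 96 h. Lyn, Blk and Fyn encode the Src family kinases that phosphorylate the receptor. Lyn had 5 sites with at most 1 replicate each, Blk 3 sites with up to 4 replicates and Fyn an intronic site with 2 resting replicates and 1 at 96 h. Btk had none.

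Of the adaptors, Cblb, which encodes a ubiquitin ligase that limits signalling, had its site 1 (chr16:52182218-52182521) in intron 13, 150707 bp from the start, with a peak in 8 replicates. It scored at 48.2, 68.5 and 97.4 in resting cells, at 93.3 and 44.2 in 48 h replicates 1 and 3 and at 1.8, 92.4 and 78.4 at 96 h. Dapp1, an adaptor that binds the lipid product of phosphoinositide 3-kinase, had 1 site, 9838 bp before its start, at 11.3, 35.4 and 27.1 in the resting replicates, 41.6 in 48 h replicate 1 and 74 in 96 h replicate 2. Dapp1 was the member with resting peaks in all replicates and only 1 peak among the 96 h replicates. Grb2, which links the receptor to SOS and the Ras pathway, had 5 sites. Grb2 site 5 (chr11:115583933-115584232), 14171 bp before the start, had no resting replicate peak, 1 at 48 h at percentile 31.1, and 96 h peaks at 72.1, 74 and 52. The pooled resting list did hold it, at percentile 39.1. Pik3ap1 had 3 intronic sites, and its site 3, at percentiles between 15.5 and 18 in 2 resting and 1 of the 48 h replicates, had no 96 h peak. Blnk, Bank1 and Gab2 held 1, 3 and 1 sites, with 2 replicates at most.

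The exchange factors held 12 sites, 6 of them with a peak in at least 3 replicates. Vav2, which activates small GTPases such as Rac, had a peak at its locus in all 9 replicates, the only member to do so, through 4 sites. Vav2 site 4 (chr2:27283559-27284009), 1231 bp before the start, scored at 97.8, 68.5 and 91.3 in resting cells, at 44.7 in 48 h replicate 3 and at 25.9, 97 and 75.4 in 96 h cells. Vav2 site 3 in intron 11 scored at 60.1, 85.7 and 74.1 in resting cells, at 3.3 in 48 h replicate 1 and at 82.3 and 36 in 96 h replicates 2 and 3. The peak of 48 h replicate 2 at Vav2 was site 1, which no other list held. Vav1, the Vav gene that is largely restricted to blood cells, had site 3 at 6639 bp beyond its end. It scored at 35.1 and 94.4 in resting replicates 1 and 3, at 95.6 in 48 h replicate 3 and at 19.1, 97.2 and 92.8 in 96 h cells. Vav3 site 1 in intron 2 had 5 replicates, Rasgrp3 site 2 had 4, and Sos1 had 1 site with 2 replicates.

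Among the enzymes of lipid signalling, Pik3cd, which encodes the leukocyte catalytic subunit p110delta, had site 3 (chr4:149084711-149085036) at 8193 bp before its start. It scored at 99.5, 62.7 and 99 in the resting replicates, at 50.2 and 26.1 in 48 h replicates 1 and 3, and at 2.5, 93.1 and 78.4 in the 96 h replicates. The pooled percentiles were 99.8, 43.9 and 93.4 at rest, 48 h and 96 h, and the 48 h values lay below all resting ones. Pik3r1, which encodes the regulatory subunit p85alpha, had 5 sites, all in introns. Its sites 1, 2 and 3 lay 229, 9 and 1690 bp from the start of another coding transcript of the gene. Pik3r1 site 3 had peaks in 2 resting, 1 of the 48 h and 2 of the 96 h replicates. Plcg2 site 1 (chr8:120071911-120072211) in intron 2 scored at 69.3 and 79.3 in resting replicates 1 and 3 and at 21.1, 91.5 and 70.2 at 96 h, with no 48 h peak. Akt1, a kinase recruited by the lipid that phosphoinositide 3-kinase makes, had 1 site, 441 bp beyond its end (chr12:113891446-113891736). It had a peak only in the 96 h replicates, at 9.6, 63 and 91.5, and in the 96 h pooled list at 92.6.

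In the complex that leads to NF-kappaB, Prkcb, the protein kinase C of this pathway, had 6 of its 7 sites in introns. Prkcb site 4, in intron 5, scored at 45.3 and 64.3 in resting replicates 1 and 3, at 13.8 in 48 h replicate 3 and at 2.5, 97.1 and 82.5 at 96 h. Malt1, the protease of the complex, had 2 sites close together downstream of the gene. Malt1 site 1 scored at 35.4 and 73.7 in resting replicates 2 and 3, at 36.5 in 48 h replicate 1 and at 73.7, 80.3 and 80.8 at 96 h, while site 2 had 1 peak at 48 h, 2 at 96 h and none at rest. Bcl10 had 4 sites with 1 replicate at most.

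The NFAT genes held 6 sites. Nfatc1 site 4, 16385 bp before the start, had peaks in 8 replicates, at 53.8, 70.2 and 57.1 in resting cells, 53.1 and 33.3 in 48 h replicates 2 and 3 and 38.2, 29.2 and 90.9 at 96 h. It is the only site in 8 replicates that 48 h replicate 2 held. Nfatc1 site 1 in the 3′ UTR scored at 64.4 and 62.3 in resting replicates 1 and 3 and at 34.8, 90.4 and 90.2 at 96 h. Nfatc1 site 2 in intron 9 had 1 resting peak at 64.6 and 96 h peaks at 38.2, 24.9 and 64.8. Neither had a 48 h replicate peak. Nfatc2 site 1 (chr2:168294597-168294930), 7147 bp beyond the gene, had 1 resting peak at 22.2, no 48 h replicate peak and 96 h peaks at 25.9, 79.6 and 85.5.

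**Figure D4:**
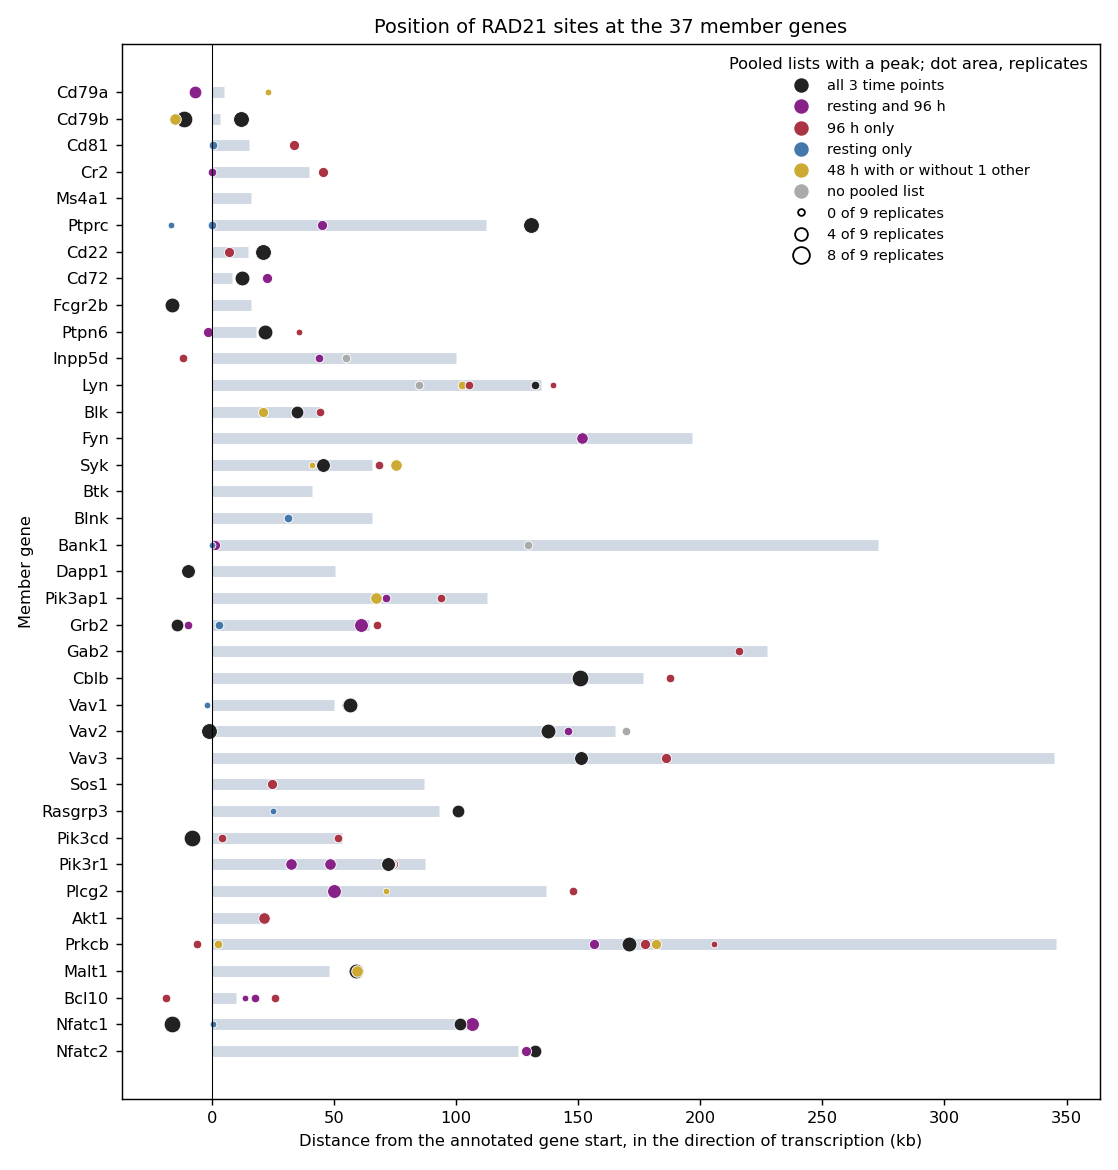
Each row is a member gene, with a bar for its annotated body drawn from its start at 0 kb in the direction of transcription, and each dot is a RAD21 site, coloured by the pooled lists that hold it and with an area that grows with its number of replicates (0 to 8 of 9). Ms4a1 and Btk have no dot, and the largest black dot of each of Cd79b, Fcgr2b, Pik3cd and Nfatc1 lies upstream of the gene. Cd79b also has a large black dot downstream, and Nfatc1 has a smaller black dot in its body.

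By position, 48 of the 96 sites lay inside the gene body, 19 upstream and 29 downstream. Of those in the body 42 were in introns, 2 in coding exons (exon 7 of Cd22 and exon 24 of Pik3cd) and 1 in the 3′ UTR of Nfatc1, and the remaining sites were in parts that only other transcripts of the gene contain. The member's own start was the nearest start of a protein-coding gene for 56 sites, and 9 sites lay in the body of another gene, so that a site counted at a member need not belong to it alone.

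Sites were sought that separated a pair of time points fully, with a peak in every replicate of one and no replicate of the other. In all 96 h and no 48 h replicates there were 5 (Plcg2 site 1, Akt1 site 1, Nfatc1 sites 1 and 2 and Nfatc2 site 1), 6.67% of the 75 member sites with a peak at either time point, where 5.69% of all sites met this. The pooled 48 h list did hold Nfatc1 site 2, at percentile 14.5, and Nfatc2 site 1, at 43.9. In all 96 h and no resting replicates there were 2 (Grb2 site 5 and Akt1 site 1), 2.53% of 79, where 5.85% of all sites did. Both shares were near or below that of all sites. At each of these sites Fisher's exact test of 3 replicates against 3 gives p = 0.1, the smallest it can give. The other directions had 0 member sites. Among all sites 0.0876% were in all resting and no 96 h replicates, 1.27% in all resting and no 48 h replicates, 0.0606% in all 48 h and no resting replicates, and 0.0206% in all 48 h and no 96 h replicates. With replicate 2 of the 48 h cells left out, Cd79b site 3 was in both remaining 48 h replicates and in no resting one (1 member site, against 1.48% of all sites), and the same 5 sites separated 96 h from 48 h cells (against 8.67% of all sites). In lists of equal length the 96 h sites no longer met the rule. Among all sites 2.39% then separated 96 h from resting and 2.5% separated 96 h from 48 h cells. In these lists 2 member sites, Vav2 site 4 and Pik3cd site 3, were in all resting and no 48 h replicates, where 1.87% of all sites were.

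By the pooled lists, 25 member sites (26%) were present at all 3 time points, where 12.6% of all sites were. A further 25 were found at 96 h only (26%, against 36.9% of all sites) and 21 at rest and 96 h but not at 48 h (21.9%, against 13.4%). Present at 48 h only was 1 member site (1.04%), against 11.2% of all sites, or 2.35% of all sites without those of 48 h replicate 2 alone. Without those sites the shares of all sites were 16.5% at all 3 time points, 48.5% at 96 h only, 17.6% at rest and 96 h and 4.4% at rest only, and the member shares were 27.2%, 27.2%, 22.8% and 9.78%. The 48 h pooled list was called on reads that include replicate 2. Leaving out its sites does not show which sites that list would hold without this replicate, and this was not tested. Resting cells alone had 9 (9.38%, against 3.34%), and 6 of these lay within 3 kb of a start of a coding transcript of the member: Cd81 site 1, Ptprc site 3, Bank1 site 3, Grb2 site 3, Vav1 site 1 and Nfatc1 site 3. Across all sites found at rest only, 22.9% lay within 3 kb of a coding transcript start of any gene. These are not like sets, because member sites were chosen for lying at a gene. Across all patterns, 22 member sites lay within 3 kb of such a start and 74 farther away. The resting-only member sites were weak, with a peak in a replicate at 4 of 9 and a median pooled percentile of 31.9, and 3 of 9 had a motif match against 67.4% of all sites of this pattern.

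**Figure D5:**
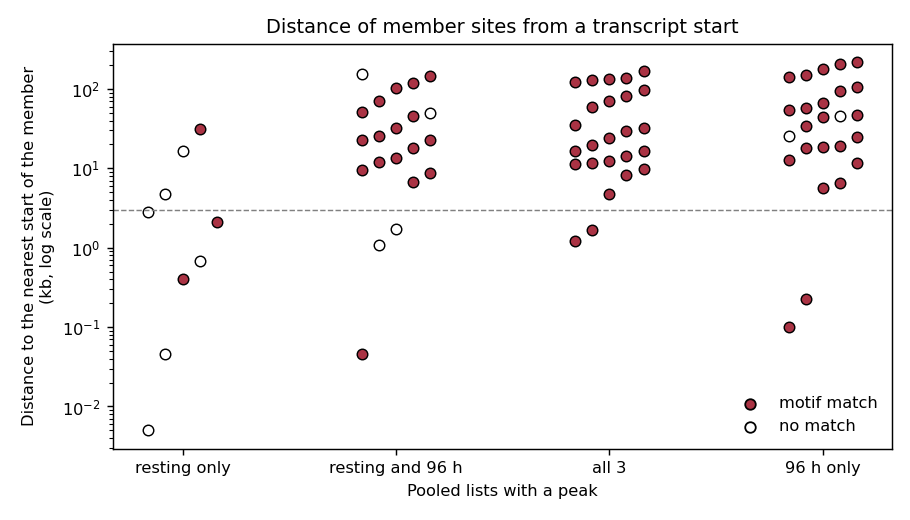
Each point is a member site, placed by the pooled lists that hold it and, on a log axis in kb, by its distance to the nearest coding transcript start of the member; filled points have a motif match and the dashed line marks 3 kb. Below the line lie 6 of the 9 resting-only sites, 3 of the 21 found at rest and 96 h, 2 of the 25 found at 96 h only and 2 of the 25 found at all 3 time points.

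The motif was matched at 76 of the 96 member sites, 79.2% (exact binomial interval 69.7 to 86.8), within 100 bp of the centre and on either strand. It was matched at 64.6% of other sites that had not been used to learn it and, by the choice of level, at 5% of windows 1 kb away. Without the sites of 48 h replicate 2 alone, of which 1.19% had a match outside the members, the order turned: 82.6% of member sites (interval 73.3 to 89.7) had a match, against 86.2% of other sites. Of the 37 member sites with a peak in at least 3 replicates 36 had a match (97.3%), Plcg2 site 1 being the exception. The share was 90.9% of other sites with at least 3 replicates that had not been used to learn the motif. Those other sites all had fewer than 6 replicates, while 15 of the 37 member sites had 6 or more, so the 2 sets are not alike. Of the 47 member sites with a peak in 1 or 2 replicates 33 had a match (70.2%, against 52.2% of other such sites). Without those of 48 h replicate 2 alone 76.7% did, against 86.1%. Of the 12 held by pooled lists alone 7 had one (58.3%, against 82.8%). Within 3 kb of a coding transcript start of the member 7 of 16 sites had a match (43.8%), and farther away 69 of 80 did (86.2%). By the distance to a coding transcript start of any gene, and without the sites of 48 h replicate 2 alone, 12 of 21 member sites near a start had a match (57.1%) and 64 of 71 farther away (90.1%), against 82.7% and 86.8% of other sites that had not been used to learn the motif.

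Read on the strand that gives the C-rich form of the consensus, the matches lay on the strand of the member gene at 50 sites and on the opposite strand at 26. This is 65.8%, against 49.7% of matches at other protein-coding genes. The imbalance was widest in the gene bodies, where 29 of 36 matches were on the gene's strand (80.6%, against 55.5% at other genes), as at Cblb site 1, Vav2 site 3, Prkcb site 4 and Grb2 site 2. The 7 body matches on the opposite strand were those of Prkcb sites 5, 6 and 7, Pik3r1 sites 1, 3 and 4 and Vav3 site 2. Upstream of the members 7 of 15 were on the gene's strand, and downstream 14 of 25. Matches in 1 gene are not independent, and this count was made after the motif had been learned, with no test.

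The wider pathway was described by 80 further genes, such as Nfkb1 and Ppp3ca. In the pooled lists 47 of them had a site in resting (58.8%), 29 in 48 h (36.2%) and 56 in 96 h cells (70%), where genes of their lengths had 29.9%, 24.9% and 54.4%. The members were above these genes at each time point. By replicate, 24, 10 and 37 of the 80 had a peak in resting, 12, 14 and 17 in 48 h and 24, 32 and 53 in 96 h cells, and 48 h replicate 2 again had a share, 17.5%, near that of genes of similar length, 16%.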

How the data were processed

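RAD21 peaks of 9 replicates and 3 pooled samples were taken as deposited. The authors aligned reads to mm9 with Bowtie 2, drew the same number of unique positions from each set and called peaks with MACS 2 at a false discovery rate of 0.05, and pooled lists came from merged replicates. Each deposited peak has a score whose statistic is not given in the sources used here. Genes came from GENCODE M1 on NCBIM37, the assembly of mm9, and Syk was matched through its synonym Sykb in RefSeq. Members and lists were chosen with earlier results of these data known. Values by replicate are given for each site with a peak in all 3 replicates of a time point. The motif was learned from the 922 sites outside the members that 6 or more replicates held, starting from the 8-base word GAGGGCGC. Time points were compared by exact two-sided permutation tests over replicates at a threshold of 0.05, with genes within 25% of each member's length as reference. Alternatives covered the flank, score, list length, site merging, motif level and each replicate left out. Python 3.11.15, numpy 2.4.6, scipy 1.17.1 and matplotlib 3.10.9 were used, and the procedures were tested on simulated data. Sequences were chosen by the number of replicates and the median score percentile, up to a limit of 10 and with none at Nfatc1 or Malt1, and 1 is not reported here.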

Additional observations from a re-analysis of the deposited data

How the results depend on the processing

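The missing read counts, 3 replicates a time point and lists of unequal length limit these comparisons. Whether the replicate numbers pair the samples across time points is not given by the labels. Deviations of same-numbered replicates correlated between -0.259 and 0.314, which does not settle it without differently numbered pairs beside them. With the replicate block, a pair of time points can give no exact permutation p below 0.25, and without it none below 0.1. Pairs therefore could not pass the threshold either way. The tests over the 3 time points did not pass it with the block, as without it (F = 2.95 and p = 0.222 for members with a peak, F = 1.91 and p = 0.25 for the margin over genes of similar length, F = 1.62 and p = 0.333 for peaks per 1000, all exact permutation tests). Of the alternative values, 230 kept their direction and side of the threshold or stayed within 1.5 times, 15 reversed, 8 passed the threshold and 11 counts moved. These totals include the pairs of time points, for which only the direction could change.

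In lists of equal length, the difference in members between 96 h and resting cells was -5.33, F was 6 for members (exact permutation p = 0.0321), 6.58 for the margin and 6.19 for peaks per 1000, and the 96 h minus 48 h difference in peaks per 1000 was 0.406. With 48 h replicate 2 also left out, an alternative added after seeing the data, those between 96 h and resting or 48 h cells were -5.33 and -0.5 members, the margin between 96 h and 48 h was -1.68, and F for peaks per 1000 was 13.7 (exact permutation p = 0.0143). The same 96 h minus 48 h difference in peaks per 1000 was 0.255 for gene bodies only, 0.853 with a 5 kb flank, 0.733 with a 50 kb flank and 0.297 for scores at or above the list median. F for peaks per 1000 was 5.75 for gene bodies (exact permutation p = 0.0429) and 5.42 with a 5 kb flank (exact permutation p = 0.0321). With scores at or above the median the margin of 96 h over resting cells was 1.09. The causes were not tested.

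Leaving out 1 replicate at a time gave 96 h minus resting differences of -1.33 to 8.17 members, and -16.1 (without resting replicate 2) to 1.52 percentage points (without resting replicate 3) in the margin, and 96 h minus 48 h differences of -3.87 to 1.76 in peaks per 1000. F ranged from 0.337 to 4.41 for the margin (exact permutation p = 0.0286 without resting replicate 2) and from 0.979 to 24.2 for peaks per 1000. Members with a pooled peak at rest, 48 h and 96 h numbered 19, 11 and 20 in gene bodies (9.28%, 7.71% and 18.6% of all genes). At 48 h they numbered 13 with a 5 kb flank (11.5% of all genes), 12 at scores at or above the median (9.87%) and 7 with support by at least 2 replicates (3.87%). Replicate 2 of the 48 h cells, with a peak at only 8 members, gave little to that support. In lists of equal length 0 member sites separated 96 h from resting or 48 h cells, against 2.39% and 2.5% of all sites. In these lists 2 member sites separated resting from 48 h cells, against 1.87%. Without 48 h replicate 2, 1 member site separated 48 h from resting cells, against 1.48% of all sites. At a motif level passed by 1% of windows away from sites, 43 member sites had a match. Of other sites that had not been used to learn the motif 38.7% did. Leaving out sites with a tandem repeat, also added after seeing the data, changed no count of member sites that separated time points. Leaving out the sites of 48 h replicate 2 alone was added after seeing the data too.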
